A study of Mus musculus with 42 samples.

Results

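The genes described here are the receptor that the study removed, its ligand, the receptors related to it and the gene beside it: Cmklr1, Rarres2, Gpr1, Ccrl2 and Wscd2. They were chosen by symbol, and all 5 were found among the 19758 gene names of the 6 deposited tables. Cmklr1 encodes ChemR23, a G protein-coupled receptor bound both by the protein chemerin and by the lipid mediator resolvin E1 (RvE1). Cmklr1, Rarres2 and Ccrl2 were listed in every table, Wscd2 in the 4 tables that held KO mice, and Gpr1 in the comparison of KO obese with WT obese mice alone. Livers of 42 male mice were sequenced, 1 library per mouse and 7 mice per group.

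ChemR23 knockout (KO) mice had been made by CRISPR/Cas9 editing on the C57BL/6J background, and their wild type (WT) littermates served as controls. From 6 weeks of age and for 15 weeks, WT lean and KO lean mice ate a diet with 10% of its energy from lard. The obese groups ate a diet with 60%. WT obese+RvE1 and KO obese+RvE1 mice received 300 ng RvE1 into the peritoneal cavity on each of 4 days and were killed on day 5, after a fast. Mice of the other 4 groups were injected with vehicle, saline with ethanol. The KO is one in all tissues, and the sources used here do not give the exact bases removed from Cmklr1. Libraries held 15960120 to 43755273 reads on listed genes, with a median of 24253532. All 10 hepatocyte markers, such as Alb and Apoa1, had reads in every group. Each mouse name opens with a number, 17 in all, whose meaning the labels do not give. Only number 23 occurred in 2 groups, KO obese and KO obese+RvE1. No number occurred in both genotypes or on both diets, nor with both vehicle and RvE1 in WT mice. The number therefore cannot be told apart from genotype, from diet, or from RvE1 in WT mice.

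Chemerin is secreted, chiefly by liver and fat, as an inactive precursor, and proteases of the clotting, fibrinolytic and inflammatory systems trim its end to make it active. ChemR23 is found on macrophages, plasmacytoid dendritic cells and some endothelial and fat cells, and it signals through inhibitory G proteins and arrestins. GPR1 also binds chemerin. CCRL2 binds it without signalling and presents it to cells nearby. Wscd2 encodes a membrane protein of the Golgi with WSC domains and has no established place in chemerin signalling.

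Cmklr1 lies on chr5:113612354-113650426 on the minus strand and Wscd2 on chr5:113490333-113589725 on the plus strand of GRCm38, the same build as mm10, in GENCODE M21. Their 3′ ends face each other across 22628 bases. Rarres2, the chemerin gene, lies on chr6:48569696-48572789, Gpr1 on chr1:63182691-63214543 and Ccrl2 on chr9:111054486-111057519, all on the minus strand. The counted region of each is its exons.

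The receptor genes are relatives, so their coding sequences were compared to see how far reads could be exchanged among them. Cmklr1 codes for 371 residues, Gpr1 for 353 and Ccrl2 for 360. Over the aligned bases 66.0% were identical between Cmklr1 and Gpr1, 65.6% between Cmklr1 and Ccrl2 and 61.2% between Gpr1 and Ccrl2. The longest run shared by Cmklr1 and Gpr1 was 13 bases, and it is shown in capitals with 20 bases on either side, at bases 502 to 554 of each coding sequence. It is shown as the longest stretch that the coding sequences of ChemR23 and GPR1 share exactly. Exon bases outside the coding sequence, where reads are counted too, were not compared.
Cmklr1: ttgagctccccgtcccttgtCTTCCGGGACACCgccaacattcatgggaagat
Gpr1: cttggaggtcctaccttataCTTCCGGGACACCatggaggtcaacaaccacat
Cmklr1 and Wscd2 shared no run longer than 11 bases of coding sequence, and the longest run shared by Cmklr1 and Ccrl2 was also 13 bases, elsewhere in the sequence. The last 60 bases of the Rarres2 coding sequence are shown because they encode the end of chemerin at which proteases cut, with the stop codon in capitals.
Rarres2: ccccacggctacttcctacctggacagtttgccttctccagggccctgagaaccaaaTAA

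The first question was how the genotype showed in the targeted gene itself. Cmklr1 was lower and Wscd2 higher in KO than in WT livers, on the lean and on the obese diet, and they were the 2 genes with the smallest p-values in both comparisons. The values are normalized counts, that is, reads divided by a size factor of the library, and can be compared within a table only. In bulk liver, fewer cells that make a transcript and less transcript per cell cannot be told apart.

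In WT lean mice Cmklr1 ran from 40.8 over a median of 62.0 to 114 normalized counts, from 44 to 138 reads. In KO lean mice it ran from 9.72 over 10.7 to 22.6, from 9 to 33 reads. All 7 KO lean mice lay below all 7 WT lean mice, and the KO mean was 19.8% of the WT mean. The log2 fold change was -2.23 (95% interval -2.74 to -1.71, limma, BH-adjusted p = 0.000492), and 6.65% of 13031 genes tested were called in this comparison. A gene was called at a BH-adjusted p below 0.1 and a fold change above 1.5, and log2 fold changes are on the scale of log2(normalized count + 1), which understates the change of low genes.

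On the obese diet, Cmklr1 ran from 33.3 over 51.5 to 102 normalized counts in WT and from 5.08 over 14.2 to 23.2 in KO mice. The groups again did not overlap, and the KO mean was 23.4% of the WT mean. The log2 fold change was -2.04 (95% interval -2.69 to -1.40, limma, BH-adjusted p = 0.0339), with Cmklr1 and Wscd2 the 2 genes called, 0.0141% of 14162 tested. The call was lost without WT obese mouse 22L (adjusted p = 0.127) or 6L (0.132), or without KO obese mouse 10R (0.106) or 31L (0.12) by limma, while the log2 fold change stayed between -2.17 and -1.84 with any 1 of 14 mice left out. With a random block for the identifier number, limma gave an adjusted p of 0.153 for both genes.

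Reads therefore remained on Cmklr1 in all 21 KO mice, from 3 in KO obese mouse 23L to 37 in 10-2L. In KO obese+RvE1 mice it had 5 to 25 reads. The genotype effect on Cmklr1 differed by 0.18 on the log2 scale between obese and lean mice (95% interval -0.63 to 1.00, limma, BH-adjusted p = 0.849). That interval reaches 2.00-fold in one direction and 0.645-fold in the other. By this test 7 of 13010 genes, 0.0538%, passed an adjusted p of 0.1.

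Wscd2 had no read in 3 WT lean mice and 1 read in each of the other 4, a median of 0.906 and at most 1.30 normalized counts. In KO lean mice it had 11 to 26 reads, from 11.9 over 17.1 to 33.8 normalized counts. The lowest KO lean mouse stood above the highest WT lean mouse. limma gave a change of 3.62 on the log2 scale (SE 0.34, BH-adjusted p = 0.000114), a fitted fold of 12.3, while the ratio of the means was 28.7. The fitted value depends on the pseudocount because the WT level was near 0, and it ran from 2.26 to 4.71 over 8 other settings, with an adjusted p of 0.0015 at most. DESeq2 gave this gene no adjusted p here.

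Among WT obese mice 5 had no Wscd2 read, 6RL had 1 read and 6L had 5 reads or 4.90 normalized counts. A count of 0 allows up to 3 reads. KO obese mice ran from 3.79 in 31L over a median of 16.9 to 23.2 in 10-2L, so 6 of 7 lay above every WT obese mouse and 31L lay below 6L. By limma the change was 3.45 on the log2 scale (SE 0.47, BH-adjusted p = 0.0216), and without 6L it was 3.79 (SE 0.39, adjusted p = 0.000996). Without the 3 mice numbered 10 it was 3.09 (adjusted p = 0.638) and without the 3 numbered 27 it was 3.07 (adjusted p = 0.699). The genotype effect on Wscd2 differed by -0.17 between obese and lean mice (95% interval -1.35 to 1.02, limma, BH-adjusted p = 0.917).

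**Figure D1:**
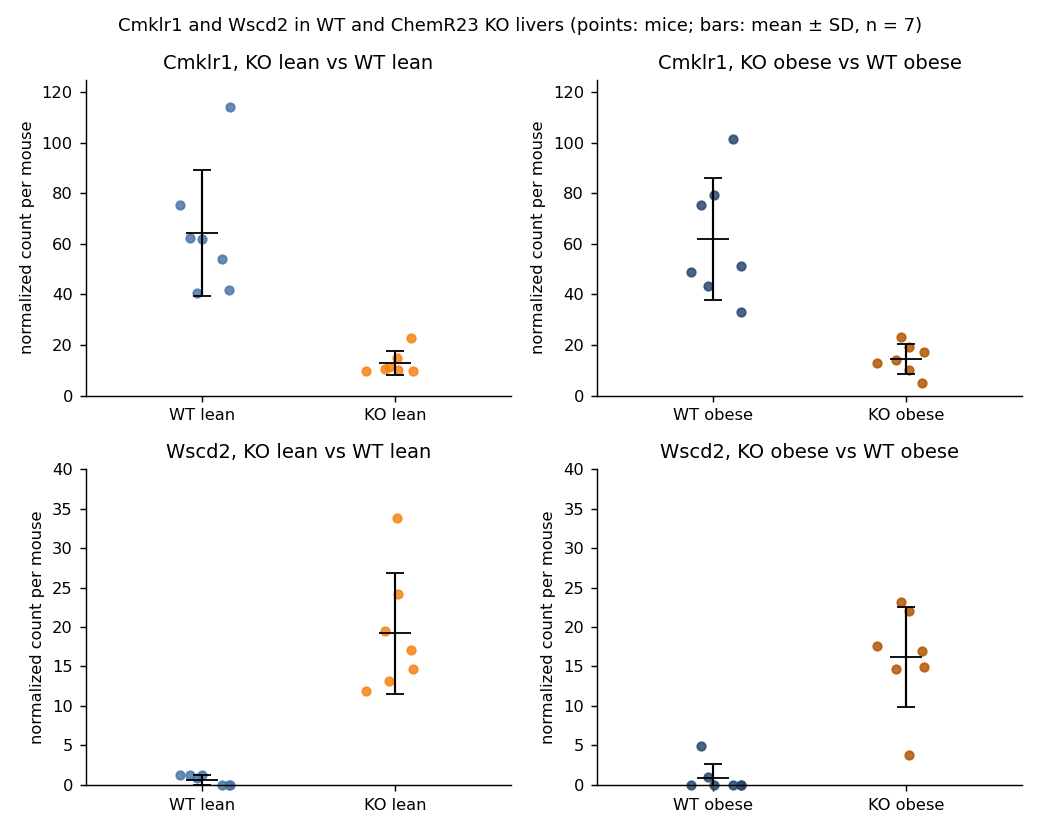
Normalized counts of Cmklr1 (top) and Wscd2 (bottom) per mouse in the lean (left) and obese (right) genotype comparisons, each from its own table. Points are mice and bars the mean with its SD (n = 7). Cmklr1 does not overlap between genotypes, and Wscd2 overlaps only where KO obese mouse 31L (3.79) lies below WT obese mouse 6L (4.90).

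Levels of different genes were compared per kilobase of exon. In WT lean mice Rarres2 had 1175 ± 205 normalized counts per kb (SD, n = 7), Cmklr1 18.9 ± 7.37 and Ccrl2 16.5 ± 6.38, while Wscd2 had 0.0436 ± 0.0416. In KO lean mice Cmklr1 had 3.74 ± 1.38 and Wscd2 1.25 ± 0.50. Chemerin was thus by far the most abundant member, and Cmklr1 and Ccrl2 in WT mice did not differ beyond their spread. Per kb, the mean of Wscd2 in KO lean mice lay below that of the reduced Cmklr1. This order rests on the exon lengths taken over all GENCODE M21 transcripts, 15.3 kb for Wscd2 and 3.41 kb for Cmklr1. Without division by length the means were 19.2 for Wscd2 and 12.7 for Cmklr1. The annotation used for counting is not given in the sources used here. Gpr1 had 1 read in WT obese mouse 27-2R and 1 read in each of KO obese mice 10-2L, 10R and 31R, and no read in the other 10 mice of its table. It was below the minimum for testing, a mean of 5 normalized counts, and 3 reads there correspond to 0.0686 to 0.188 reads per 1000000. A difference in Gpr1 was not detectable at this depth.

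The region around the pair was examined next. Of 58 other genes annotated within 1 Mb of Cmklr1, 29 were listed in a table and 21 were tested in both genotype comparisons. In KO lean against WT lean mice 1 of 21 was called, Fam222a, with a log2 fold change of -1.39 (SE 0.48, limma, BH-adjusted p = 0.0806), and the median over the 21 was -0.07 against 0.0 over all genes. An unadjusted p under 0.05 was reached by 4 of the 21, beside 3488 of all 13031 genes. In obese mice limma called 0 of 21, and 0 had an unadjusted p under 0.05, beside 319 of all 14162 genes, with a median of -0.03. The share of 1 in 21 lies near the share of all genes called.

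The nearest tested genes beyond the pair gave no call in either comparison. On the Wscd2 side these were Sgsm1, 179547 bases away, at -0.08 in lean and 0.16 in obese mice, and 2900026A02Rik at -0.33 and -0.03. On the Cmklr1 side they were Ficd, 85377 bases away, at -0.01 and 0.15, and Sart3 at -0.42 and -0.06. Sart3, which encodes a factor that recycles spliceosomal RNAs, had a BH-adjusted p of 0.0839 in lean mice by limma but stayed under 1.5-fold. The antisense gene Gm15736, inside Cmklr1 on the opposite strand, is not listed in the tables, and the sources used here do not say whether counting used strand.

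**Figure D2:**
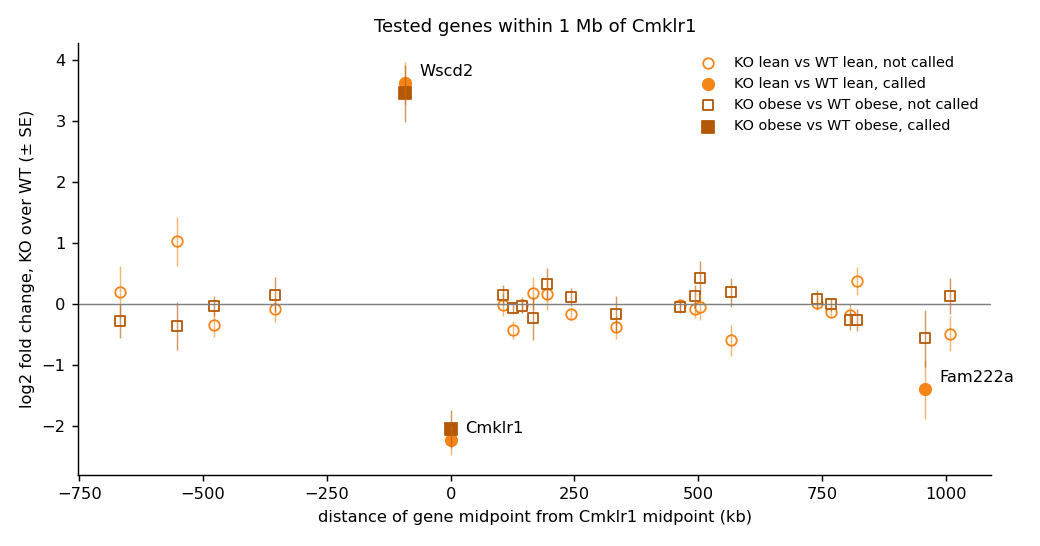
Log2 fold change (KO over WT, with its SE) of the genes tested within 1 Mb of Cmklr1, against the distance of each gene's midpoint from that of Cmklr1 in kb. Filled symbols were called. Wscd2 (3.62 and 3.45) and Cmklr1 (-2.23 and -2.04) stand apart from their neighbours in lean and obese mice, and Fam222a (-1.39) was called in lean mice.

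Markers of the cells in which ChemR23 is known were set beside these results. In lean mice, where 6.65% of all genes were called, limma called 10 of 12 Kupffer cell markers higher in KO mice. These are genes of the resident macrophages of the liver, such as Clec4f, Timd4 and Vsig4. Their summed level ran from 4828 to 9961 normalized counts in WT lean and from 10774 to 22287 in KO lean mice, so Cmklr1 was lower while the summed markers were higher, without overlap. In obese mice 0 of 12 were called, where 0.0141% of all genes were called. The sums overlapped there (6142 to 9444 in WT, 6473 to 9077 in KO mice), while Cmklr1 and Wscd2 were at -2.04 and 3.45. Among markers of the other cells, limma called 1 of 10 of the sinusoidal endothelium higher in KO lean than in WT lean mice (list median 0.22). It called 2 of 8 of B and plasmacytoid dendritic cells higher (0.26) and 0 of 4 tested of adipocytes (0.83). In obese mice it called 0 of 10, 0 of 8 and 0 of 5 tested. With a random block for the identifier number, 3 genes in all were called in the lean comparison, Cmklr1 and Wscd2 among them. No more than 1 of the Kupffer cell markers was thus called under it. None of the 12 was at 0 in any group. The part of these cells in the lean values was not tested.

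Within groups, the genes that varied most like each member were sought by Pearson's r of log2 values after subtracting the group mean. These are descriptions over mice that in part share an identifier number and whose libraries differ in depth, and the best of so many genes is high by selection. Over 21 WT mice Cmklr1 varied most like Sdc3 (r = 0.946, Spearman's rho 0.919), Plekho2 (0.895) and Itpripl2 (0.892). The median r was 0.604 with 12 Kupffer cell markers, 0.643 with 10 markers of the sinusoidal endothelium and -0.20 with 10 hepatocyte markers, against -0.03 over 12075 genes. Over 21 KO mice Wscd2 varied most like Nckap1l (r = 0.832, rho 0.834), Csf1r (0.829) and Rcan3 (0.811). Nckap1l encodes a subunit of the actin-regulating complex of blood cells and Csf1r the receptor for macrophage growth factor. The median r of Wscd2 was 0.378 with the Kupffer cell markers, of which Csf1r is one, 0.372 with markers of the sinusoidal endothelium, 0.309 with those of monocytes and neutrophils and 0.262 with those of stellate cells, against -0.02 over all genes. Its r with what remained of Cmklr1 was 0.476.

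Chemerin itself did not pass the test in either genotype comparison. In lean mice Rarres2 ran from 2319 over a median of 3360 to 3721 normalized counts in WT and from 2331 over 2633 to 4177 in KO livers. In obese mice it ran from 2558 over 3586 to 4381 in WT and from 2931 over 3479 to 4228 in KO livers. The log2 fold changes were -0.08 (95% interval -0.40 to 0.24, limma, BH-adjusted p = 0.771) and -0.04 (-0.30 to 0.21, 1.0). Both intervals exclude a change of 1.5-fold in either direction, but they treat the mice as independent. Rarres2 differed by identifier number, at 2331 to 2399 for number 14 and 3016 to 4177 for number 20 in KO lean mice. In WT obese mice it was at 2558 to 3323 for number 6 and 3586 to 4381 for number 27. Rarres2 had 2110 to 6099 reads per mouse in these 2 tables.

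Ccrl2 overlapped between the genotypes as well. It ran from 28.6 over 41.3 to 77.2 normalized counts in WT lean and from 26.0 over 38.3 to 68.9 in KO lean mice. The difference was -0.03 on the log2 scale (95% interval -0.53 to 0.46, limma, BH-adjusted p = 0.945). In obese mice it ran from 19.6 over 34.5 to 75.4 in WT and from 35.1 over 41.7 to 117 in KO mice. The log2 fold change was 0.46 (95% interval -0.18 to 1.10, adjusted p = 1.0), and it was 0.26 without KO obese mouse 23L, whose 117 was the highest value. The interval in obese mice does not exclude a 1.5-fold rise.

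The next question was whether the obesogenic diet moved these genes within a genotype. None of the members was called by limma, while 3.8% of genes were called in WT and 10.4% in KO mice. Cmklr1 ran from 39.2 over 59.6 to 110 in WT lean and from 30.1 over 46.8 to 92.7 in WT obese mice. Its change was -0.15 on the log2 scale (95% interval -0.70 to 0.41, limma, BH-adjusted p = 0.817). In KO mice the remaining Cmklr1 signal ran from 10.7 over 11.7 to 24.9 on the lean and from 5.29 over 14.7 to 23.8 on the obese diet, a change of 0.04 (-0.59 to 0.67, adjusted p = 0.941). Kupffer cell markers were called lower in KO obese than in KO lean mice in 9 of 12 cases and in WT mice in 0 of 12. The first comparison shares the KO lean mice with the genotype comparison above. By the test of the difference itself, the genotype effect in obese minus lean mice, limma called 0 of the 12. An unadjusted p under 0.05 was reached by 8 of them, with a median of -0.83. Of all 13010 genes in that test, 7 (0.0538%) were called and 2391 had an unadjusted p under 0.05.

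For Wscd2, KO lean mice ran from 13.1 over 18.9 to 37.1 and KO obese mice from 3.96 over 17.6 to 23.8 normalized counts. The groups overlapped, and the log2 fold change was -0.38 (95% interval -1.08 to 0.33, limma, BH-adjusted p = 0.468). Rarres2 did not pass the test with diet in either genotype. It ran from 2245 over 3233 to 3570 in WT lean and from 2333 over 3245 to 3967 in WT obese mice, which was a change of 0.14 (-0.15 to 0.43, adjusted p = 0.642). In KO mice it ran from 2565 over 2901 to 4606 and from 3040 over 3627 to 4407, a change of 0.18 (-0.11 to 0.46, adjusted p = 0.394). The KO lean mice differed by identifier number, at 2565 to 2643 for number 14, 2891 to 2901 for number 9 and 3321 to 4606 for number 20. Without number 20 the change was 0.40 (SE 0.10, limma, adjusted p = 0.0138), which passed the adjusted p at less than 1.5-fold, and without number 14 it was 0.054 (adjusted p = 0.832).

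Ccrl2 gave a log2 fold change of -0.23 (95% interval -0.80 to 0.35, limma, BH-adjusted p = 0.72) with diet in WT mice, from 27.7 to 74.2 in lean and 17.8 to 68.8 in obese mice. In KO mice the change was 0.26 (-0.30 to 0.82, adjusted p = 0.529), and 0.07 without KO obese mouse 23L.

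RvE1 was then compared with vehicle in obese mice, with the receptor present and removed. By limma 0 members and 0% of all genes were called in WT mice and 0% in KO mice, where 795 and 1179 genes had an unadjusted p under 0.05. On recovered reads edgeR called 1 and 0 genes and DESeq2 15 and 14, none of them a member. Cmklr1 ran from 35.3 over 54.9 to 109 in WT obese and from 46.1 over 64.5 to 148 in WT obese+RvE1 mice. Its log2 fold change was 0.26 (95% interval -0.33 to 0.85, limma, BH-adjusted p = 0.969). In KO mice it ran from 5.33 over 14.8 to 24.3 with vehicle and from 6.77 over 12.4 to 16.3 with RvE1, a change of -0.19 (-0.82 to 0.44, adjusted p = 0.87). The RvE1 effect on Cmklr1 differed by -0.45 between the genotypes (95% interval -1.29 to 0.39, adjusted p = 1.0), a test in which 0% of 13061 genes passed and 312 had an unadjusted p under 0.05.

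Wscd2 ran from 3.97 over 17.8 to 24.3 normalized counts in KO obese and from 5.41 over 20.5 to 25.4 in KO obese+RvE1 mice. The change was 0.21 on the log2 scale (95% interval -0.59 to 1.01, limma, BH-adjusted p = 0.89).

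Rarres2 in the WT mice given RvE1 fell into separate sets by identifier number. The 3 mice numbered 30 had 5370 to 5775 normalized counts and the 4 numbered 7 had 3214 to 3387, while WT obese mice ran from 2733 over 3831 to 4654. The mice numbered 30 lay above every vehicle mouse, and those numbered 7 lay within the vehicle range. With all mice the log2 fold change was 0.10 (95% interval -0.25 to 0.46, limma, BH-adjusted p = 0.974), without number 30 it was -0.21 (adjusted p = 0.516), and without number 7 it was 0.52 (adjusted p = 0.459). What the number stands for, and its part in this value, was not tested. Vehicle mice differed by number too, with 2733 to 3544 in those numbered 6, 3831 to 4654 in those numbered 27 and 4455 in the 1 numbered 22. In KO mice Rarres2 ran from 3068 over 3648 to 4442 with vehicle and from 2855 over 3603 to 4602 with RvE1, a change of -0.07 (-0.31 to 0.17, adjusted p = 0.876).

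Over all 42 mice, with group means subtracted, Rarres2 varied most like Apoc1, an apolipoprotein gene (r = 0.909, rho 0.908), Sdhc, a subunit of mitochondrial complex II (0.907), and Higd2a (0.894). Its median r was 0.532 with 10 hepatocyte markers and -0.13 with 12 Kupffer cell markers.

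With vehicle and with RvE1, the highest Ccrl2 value of the KO mice was in a mouse numbered 23. KO obese mouse 23L had 123 normalized counts against 36.8 to 63.6 in the other 6, and KO obese+RvE1 mouse 23-2L had 171 against 20.9 to 47.5. The remaining mouse of that number, 23RL, had 36.8. Without these 3 mice the log2 fold change with RvE1 was -0.66 (SE 0.25, limma, BH-adjusted p = 0.244), against -0.45 (95% interval -1.30 to 0.41, adjusted p = 0.763) with all mice. It was -0.80 (adjusted p = 0.21) without 23-2L alone and -0.25 (adjusted p = 0.907) without 23L alone, so single mice moved it either way. Without the mice numbered 15 it was -0.19 and without those numbered 12 -0.25, and edgeR and DESeq2 gave -0.19 each. The summed level of 8 monocyte and neutrophil markers was highest in the same mice of each group, 1174 in 23L against 860 in the next mouse and 1070 in 23-2L against 423. The list did not move as a whole in these mice. S100a8 and S100a9, calcium-binding proteins abundant in neutrophils, had 324 and 608 normalized counts in 23L and 283 and 449 in 23-2L, and with Retnlg (58.7 and 37.1) they were the highest of their group. Ccr2, a chemokine receptor of monocytes, was at 46.2 in 23L, the lowest of the 7 KO obese mice, against 74.8 to 423 in the others. In 23-2L Ccr2 lay within the range of the other KO obese+RvE1 mice. Csf3r (114) and Ly6c2 (17.0) were the highest of their group in 23-2L. In 23L they were at 90.7 and 3.56, within the range of the other KO obese mice. Cx3cr1 (17.8 and 17.0) and Itgam (24.9 and 27.8) lay within the range of the other mice in both. The description of these markers gene by gene was chosen after their values were seen. The part of these cells in the Ccrl2 values was not tested. In WT mice Ccrl2 ran from 20.9 over 36.6 to 80.6 with vehicle and from 24.4 over 35.9 to 43.1 with RvE1, a change of -0.18 (-0.70 to 0.33, adjusted p = 0.969).

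Across all 42 mice Ccrl2 varied most like Klf4 (r = 0.80, rho 0.661), Apold1 (0.799, rho 0.536) and Hoxa5 (0.789, rho 0.625). Klf4 is a transcription factor gene and Apold1 an early response gene of endothelium. For all 3 the rank correlation was lower than r. The median r was 0.497 with 5 monocyte and neutrophil markers, whose single values ran from -0.17 to 0.669. It was 0.317 with hepatocyte, 0.281 with stellate cell and 0.214 with sinusoidal endothelium markers. With 12 Kupffer cell markers it was 0.121 and with adipocyte markers -0.05, against 0.02 over all genes. The mice with the highest Ccrl2 values, described above, are among the 42, so these correlations are not separate from those values.

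**Figure D3:**
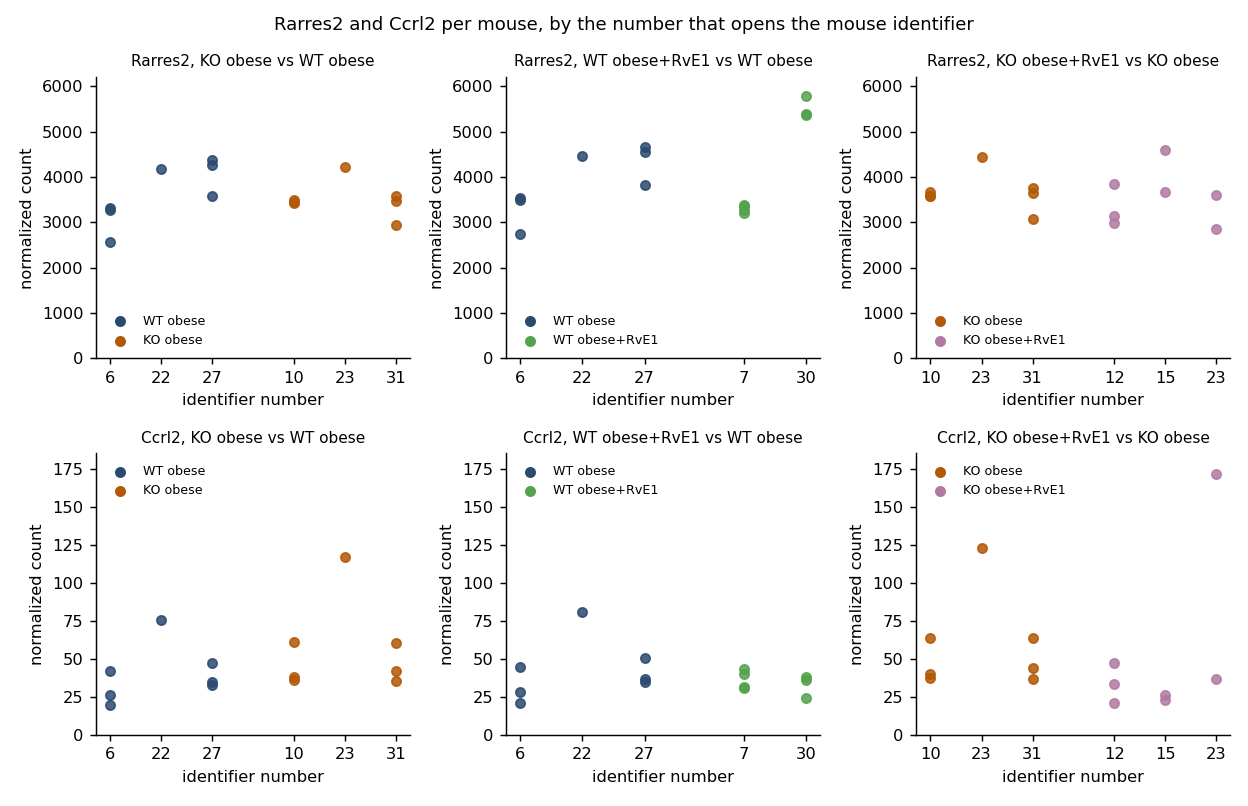
Normalized counts of Rarres2 (top) and Ccrl2 (bottom) per mouse, grouped by the number that opens the mouse's identifier, in 3 comparisons of obese mice, each from its own table. Rarres2 in WT obese+RvE1 mice lies at 5370 to 5775 for number 30 and 3214 to 3387 for number 7, and the highest Ccrl2 values, 123 and 171, belong to KO mice numbered 23.

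**Figure D4:**
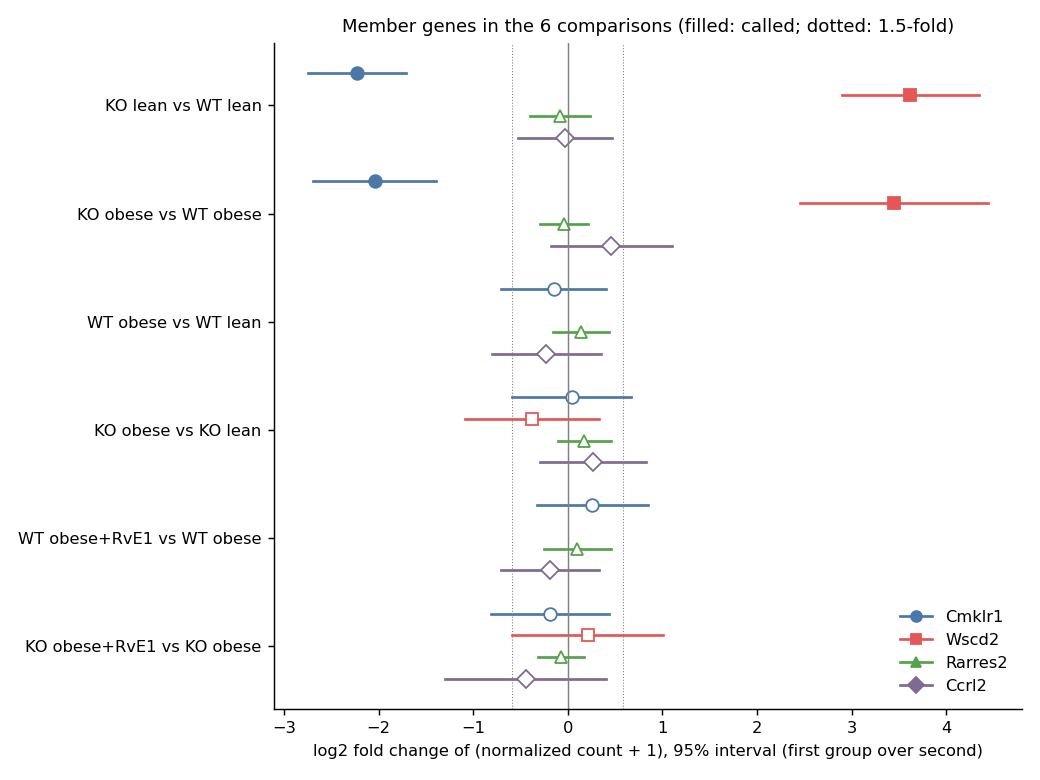
Log2 fold changes of Cmklr1, Wscd2, Rarres2 and Ccrl2 with 95% intervals in the 6 comparisons, the first named group over the second. Filled symbols were called and dotted lines mark 1.5-fold. The called values are those of Cmklr1 and Wscd2 in both genotype comparisons, and every other interval crosses 0.

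The genes around the chemerin system were read by list. Of 17 genes for proteases that cut chemerin, 11 or 12 were tested in each comparison and limma called 0 in any of the 6, where 6.65%, 0.0141%, 3.8%, 10.4%, 0% and 0% of all genes were called. The median log2 fold change over the list was -0.04 in KO lean against WT lean mice and -0.27 in KO obese against KO lean mice, against 0.0 over all genes in both. Cpn1, the catalytic subunit of carboxypeptidase N, was at -0.39 (SE 0.10, limma, BH-adjusted p = 0.052) in WT obese against WT lean mice. In KO mice it was at -0.40 with diet (SE 0.11, adjusted p = 0.0256), so it passed the adjusted p in both genotypes at less than 1.5-fold. F12, the clotting factor XII gene, was at -0.29 in both, with adjusted p = 0.154 in WT and 0.0898 in KO mice.

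Plau, the urokinase gene, was at 0.50 (limma, BH-adjusted p = 0.131) and F7, the gene of clotting factor VII, at -0.19 (adjusted p = 0.265) in KO lean against WT lean mice. F7 and Cpn1 had the smallest p in KO obese against WT obese mice, at -0.14 and -0.09 (adjusted p = 1.0 for both). With RvE1 the smallest p belonged to Ctsk (-0.64, adjusted p = 0.786) and Plau (0.37, 0.917) in WT mice and to the neutrophil protease genes Prtn3 (1.68, 0.557) and Elane (1.00, 0.642) in KO mice.

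Of 15 listed genes of G proteins, receptor kinases and arrestins, the machinery through which ChemR23 signals and is switched off, 14 were tested and limma called 0 in any comparison. Of all genes, 6.65% and 0.0141% were called by genotype in lean and obese mice, 3.8% and 10.4% by diet in WT and KO mice, and 0% by RvE1 in either. The list's median log2 fold change was 0.09 in KO lean against WT lean mice and -0.05 in KO obese against KO lean mice. Gnaq was at -0.54 (SE 0.15, limma, BH-adjusted p = 0.0471) and Gna13 at -0.34 (adjusted p = 0.0682) in KO lean against WT lean mice, both under 1.5-fold. With diet in KO mice Gnaq was at 0.42 (adjusted p = 0.0487) and Arrb2, an arrestin gene, at -0.21 (0.135). The genotype effect on Gnaq differed by 0.57 between obese and lean mice (adjusted p = 0.14). Gnai2, an inhibitory G protein subunit, was at 0.13 and Arrb1 at 0.22 in KO obese against WT obese mice (adjusted p = 1.0 for both). Grk5 (-0.38, 0.283) and Gna13 (-0.21, 0.336) led the diet comparison in WT mice. With RvE1 Gnai2 (0.17, 0.841) and Grk3, listed as Adrbk2 (-0.58, 0.901), led in WT mice, and Gna12 (0.47, 0.557) and Grk4 (-0.31, 0.608) in KO mice.

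Of 6 listed receptor genes for RvE1, leukotrienes and related mediators, those of the formyl peptide family were higher in lean KO mice. Fpr2, which encodes a formyl peptide and lipoxin receptor, was called higher in KO lean than in WT lean mice, with a log2 fold change of 1.40 (SE 0.27, limma, BH-adjusted p = 0.0304), and Fpr1 at 0.79 (SE 0.21, adjusted p = 0.0443). They were 2 of 4 tested, where 6.65% of all genes were called, with a list median of 0.25. Under the random block for the identifier number no more than 1 gene other than Cmklr1 and Wscd2 was called there. Both are genes of neutrophils and macrophages, and they rose beside the Kupffer cell markers, whose part was not tested. Ltb4r1, which encodes BLT1, the leukotriene B4 receptor that RvE1 also binds, was at -0.34 (adjusted p = 0.447) there and at -0.33 (adjusted p = 1.0) in obese mice, and is named for that role after its values were seen. In KO obese against KO lean mice Fpr2 was called lower, at -0.92 (SE 0.28, adjusted p = 0.0382), 1 of 5 tested, where 10.4% of all genes were called, with a list median of -0.41. That comparison shares the KO lean mice with the one before. The genotype effect on Fpr2 differed by -0.92 between obese and lean mice (SE 0.37, adjusted p = 0.184). limma called none of the list in the remaining 4 comparisons, where 0.0141%, 3.8%, 0% and 0% of all genes were called. For each, the 2 genes with the smallest p are given with log2 fold change and adjusted p. For KO obese against WT obese mice these were Fpr2 (0.48, 1.0) and Fpr1 (0.37, 1.0). For diet in WT mice they were Ltb4r2 (-0.68, 0.141) and Ltb4r1 (-0.16, 0.802). For RvE1 they were Fpr1 (0.48, 0.917) and Ltb4r1 (-0.31, 0.935) in WT mice and Ltb4r2 (-0.11, 0.887) and Fpr1 (0.08, 0.898) in KO mice.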

How the data were processed

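The authors prepared libraries from total RNA with a stranded TruSeq kit, ran them on a NovaSeq, aligned read pairs to mm10 with Bowtie2 and counted them per gene with featureCounts, both ends mapped. Versions, annotation and the strand option of the counting: not given in the sources used here. The deposited signal values are counts divided by DESeq2 size factors, normalized separately in each of 6 tables of 14 mice. The tables' log2 fold change and p-value columns, which hold the authors' own comparisons, were not used. Whole reads were recovered from the deposited signal values (100% of values whole within 0.1 reads, 0 differing between tables).

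Comparisons were tested with limma 3.58.1 (R 4.3.3, eBayes with trend, two-sided, BH adjustment) on log2(normalized count + 1). Genes needed a mean of at least 5 normalized counts. The procedure was tested on simulated data with independent mice, the same variability for all genes and changes only in genes with a mean of at least 20. That test does not cover genes as low as Wscd2 or mice alike by identifier number. Interactions had no fold threshold. Alternatives were pseudocounts of 0.5 and 4, no filter, TMM scaling, edgeR 4.0.16, DESeq2 1.42.0, a random block for the identifier number, other thresholds and single mice left out. Leaving out identifier numbers was added after the values had been seen. Coordinates, exon lengths and coding sequences came from GENCODE M21 through gene symbols. The members, gene lists and naming rules were chosen with earlier results of these data known. Named were the members, called genes within 1 Mb and the 2 nearest tested on either side, the 3 genes most like a member with a mean of at least 20, and for each list up to 4 called genes or the 2 with the smallest p. The bound of 3 reads for a count of 0 covers counting error only. The labels do not say whether mice shared a cage or litter. The p-values without the block treat mice as independent, so they may be too small where mice of 1 number are alike. The correlation between mice of 1 number, as fitted by the block, ran from 0.064 (RvE1 in KO mice) to 0.373 (RvE1 in WT mice).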

Additional observations from a re-analysis of the deposited data

Results flagged for a closer look

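A value is given here where the highest or lowest of 7 mice stood apart from the rest of its group by more than Dixon's 95% limit (gap over range above 0.568). Chance flags about 1 in 20 groups, and 12 of 46 group values were flagged, with each group counted once per table that holds it. Cmklr1 was high in KO lean mouse 20L, at 22.6 normalized counts in the lean genotype table and 24.9 in the KO diet table. That mouse also had the highest summed Kupffer cell markers of its group (22287). Mouse 14RL had the next highest sum (16737) but Cmklr1 at 10.2, below the group's median of 10.7. Ccrl2 was high in WT lean mouse 19R (77.2 and 74.2 in its 2 tables), in KO obese mouse 23L (117, 122 and 123 in its 3 tables) and in KO obese+RvE1 mouse 23-2L (171). Wscd2 was high in WT obese mouse 6L (4.90) and low in KO obese mouse 31L (3.96 in the KO diet table) and KO obese+RvE1 mouse 15R (5.41). Gpr1 was at 0.961 in WT obese mouse 27-2R, the worth of 1 read. The Wscd2 value of 6L rests on 5 reads. Single reads decide the Wscd2 values in the other WT mice and those of Gpr1.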

How the results depend on the processing

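For 29 member results, 641 of 690 values under the alternatives kept direction and side of the threshold, 13 lost the call and 36 turned direction, all of the last in results that had not passed the test. The calls of Cmklr1 and Wscd2 in KO lean against WT lean mice held under every alternative run that gave a value, while DESeq2 gave none for Wscd2. With a random block for the identifier number, KO obese against WT obese gave -2.16 for Cmklr1 and 3.50 for Wscd2, both with an adjusted p of 0.153, and Cmklr1 with diet in KO mice turned to -0.019. No paired analysis was possible because replicate numbers were given in accession order. The RvE1 effect on Ccrl2 in KO minus WT mice, -0.26 in limma, was 0.083 in edgeR and 0.091 in DESeq2.

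With 1 mouse or all mice of 1 identifier number left out, Cmklr1 ran from -2.34 to -1.84 and Wscd2 from 3.07 to 3.96 in KO obese against WT obese mice. Cmklr1 was then uncalled without number 10, 22, 27, 31 or 6 and Wscd2 without 10 or 27. In the same way Ccrl2 ran from -0.22 to 0.12 and Rarres2 from -0.30 to 0.043 in KO lean against WT lean mice, and Rarres2 from -0.23 to 0.090 in KO obese against WT obese mice. With diet in WT mice Cmklr1 ran from -0.33 to 0.15 and Ccrl2 from -0.40 to 0.059. With diet in KO mice Cmklr1 ran from -0.26 to 0.25 and Wscd2 from -0.74 to 0.034. With RvE1 in WT mice Cmklr1 ran from -0.13 to 0.55 and Rarres2 from -0.21 to 0.52. With RvE1 in KO mice Cmklr1 ran from -0.44 to 0.11, Wscd2 from -0.20 to 0.57 and Rarres2 from -0.17 to 0.025. Without changing direction, Ccrl2 ran from -0.80 to -0.19 there and Rarres2 from 0.054 to 0.40 with diet in KO mice. The cause was not tested.

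Genes called in KO lean against WT lean fell from 866 to 3 under the block, to 480 at an adjusted p under 0.05, and rose to 2123 with no fold threshold. For diet these counts were 532, 242, 348 and 878 in WT mice, and 1476, 750, 1104 and 3422 in KO mice. With 1 mouse or number left out they ran from 8 to 1480 in the lean genotype comparison, 267 to 785 for diet in WT and 639 to 2018 in KO mice, and from 0 to 47 for RvE1 in WT and 0 to 297 in KO mice. For the genotype effect in obese minus lean mice limma called 7 genes, 1 with a pseudocount of 4, 0 under the block and DESeq2 867. Depth limits Wscd2 in WT mice and Gpr1 throughout.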
